A study of Mus musculus with 18 samples.

Results

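The comparison covers gastruloids at day 3 of differentiation, from cells given doxycycline (Dox) and from cells without it. It was chosen by label and took 3 Dox and 3 control libraries collected at 72 h, which are 6 of the 18 libraries of the series. All 6 come from the mouse embryonic stem cell line RHKI(E14Tg2a), which carries an HA-Rnaseh1 knock-in, so the controls carry the knock-in too. In the Dox group the stem cells received 500 ng/ml Dox for 48 h and were then taken into gastruloid differentiation. The labels do not say whether Dox was kept on afterwards, which promoter drives the knock-in or whether the line is 1 clone. Stem cells of both groups were grown in 2i/LIF medium, and polyA RNA of whole gastruloid samples was sequenced with a stranded kit. The line descends from E14Tg2a, a stem cell strain known for a deletion in Hprt.

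Rnaseh1 encodes ribonuclease H1, an enzyme that cuts the RNA strand of RNA-DNA hybrids and so removes R-loops, the structures in which nascent RNA pairs again with its DNA template. Gastruloids are aggregates of stem cells that leave pluripotency and form primitive streak, mesoderm and a posterior axis in suspension. At the stage sampled here the streak transcription factors T, Mixl1 and Eomes are the usual landmarks, under the control of Wnt, Nodal and FGF signals, and the tailbud factors Cdx1, Cdx2 and Nkx1-2 follow in the cells that extend the axis.

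The 6 libraries held 27302352 to 32692650 estimated counts with Dox and 29132482 to 38128366 in controls. Levels are given in CPM, which are counts scaled to library size and corrected by TMM factors that lay between 0.996 and 1.006. The defining markers of the stage were present in all 6 libraries. The 4 pluripotency markers summed to 1401 to 1493 TPM (the length-adjusted RSEM values) with Dox and 1466 to 1584 TPM in controls, and the 6 streak markers to 525 to 624 TPM with Dox and 684 to 902 TPM in controls. Of the streak markers Mesp1 was below 1 TPM on average in both groups. Of the endoderm markers Foxa2 averaged 12.8 TPM with Dox and 13.5 TPM in controls. Sox17 averaged 0.15 TPM in both groups, and Cer1 averaged 0 TPM with Dox and 0.01 TPM in controls. The trophoblast markers Elf5, Prl3d1 and Tpbpa, the feeder markers Lum and Postn and the blood markers Ptprc and Tyrobp were at 0 in every library. The trophoblast markers Gcm1 and Krt7 and the blood markers Hba-a1 and Hbb-bs averaged below 1 TPM in both groups. The feeder marker Thy1 averaged 7.79 TPM with Dox and 8.26 TPM in controls. The labels give the replicate number as a batch, so the analysis was made without and with that number as a block. Nothing in the labels says that replicates came from separate cultures, and p-values then measure only the spread between these libraries.

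Rnaseh1 and Hprt rose strongly and few other genes changed by much. Without the block, 9 of 15771 genes rose (0.0571%) and 3 fell (0.019%) by the edgeR quasi-likelihood test at an adjusted p under 0.05, in all 0.0761% of the genes tested. With the block, 42 rose (0.266%) and 56 fell (0.355%), in all 0.621%, and all 12 genes called without the block were among these 98. Most of the changes were small. Of the 98 genes, 80 had a log2 fold change below 0.5 in size and 11 had 1 or more, with a median size of 0.29. Of these 98, 77 did not overlap between the groups, where 5.87% of all genes were higher and 5.66% lower without overlap. The 98 were called on these same 6 libraries, so this count is no separate support. Without the block, the 95% interval of the log2 fold change lay within 1 of 0 for 91.5% and within 0.5 for 74.6% of the genes. At an unadjusted p under 0.05, 925 genes passed without the block and 1224 with it. Of the 42 genes that rose with the block, 34 are protein-coding and 8 are annotated pseudogenes. Of the 56 that fell, 43 are protein-coding.

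**Figure D1:**
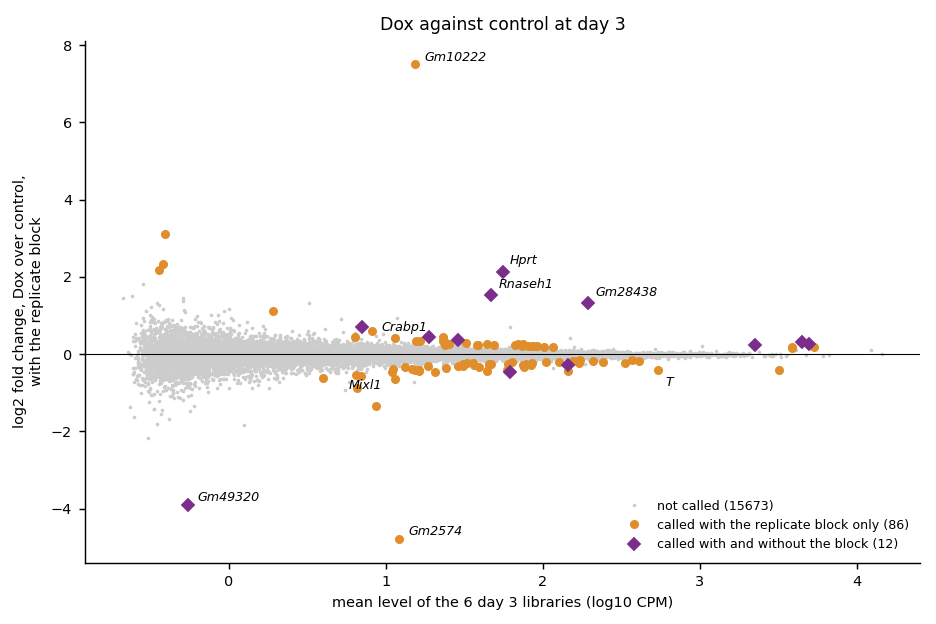
Log2 fold change of Dox over control with the replicate block (vertical axis) against the mean level of the 6 day 3 libraries (log10 CPM, horizontal axis) for 15771 genes. Purple diamonds are the 12 genes called with and without the block, orange points the 86 called with the block only and grey points the rest. Most called genes lie within 0.5 of 0, while Gm10222, Hprt, Rnaseh1 and Gm28438 stand far above it and Gm2574 and Gm49320 far below.

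Rnaseh1, which checks the labels, lies on GRCm38 chromosome 12, 28649602 to 28659589, plus strand (ENSMUSG00000020630.9). It had 69.6, 72.2 and 67.9 CPM in the Dox libraries, against 22.9, 24.7 and 24.8 CPM in the control libraries. All Dox libraries were above all controls. Rnaseh1 rose with a log2 fold change of 1.53 (SE 0.05, adjusted p = 1.9e-10), or 2.90-fold, by edgeR without the block, and 1.53 (SE 0.05, adjusted p = 7.9e-14) with it. Per length, the authors' deposited values averaged 78.7 ± 1.23 TPM in Dox and 25.8 ± 0.970 TPM in control libraries (SD, n = 3 each). Reads of the knock-in and of the resident gene are counted together here. The RSEM gene length, which is the mean length of a gene's annotated transcripts weighted by their estimated use, was 1375, 1372 and 1338 bases with Dox, against 1443, 1458 and 1410 bases in controls. The groups did not overlap and differed by -75 bases on average, with a two-sided exact permutation p of 0.1, the smallest that 3 against 3 allows. A shorter length without overlap was seen in 3.98% of the 12431 genes whose length varied. The annotated Rnaseh1 transcripts are a protein-coding one of 1455 bases, a nonsense-mediated decay one of 1368 bases and 2 retained-intron ones of 382 and 1970 bases. The mean length was also shorter with Dox on the other days, at 1365 bases with Dox and 1412 in controls at day 0 and 1396 bases with Dox and 1441 in controls at day 5. None of the 4 other genes tested within 1 Mb of Rnaseh1 was called.

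Hprt encodes hypoxanthine phosphoribosyltransferase, the enzyme that salvages purine bases, and lies on GRCm38 chromosome X, 52988137 to 53021659, plus strand (ENSMUSG00000025630.8). It had 93.002, 88.96 and 90.2 CPM in the Dox libraries, against 21.05, 21.2 and 19.6 CPM in the control libraries. Controls kept a low level in every library. Hprt rose with a log2 fold change of 2.14 (SE 0.048, adjusted p = 2.2e-12), or 4.40-fold, by edgeR without the block. It was 2.14 (SE 0.049, adjusted p = 2e-16) with it. This exceeded the rise of Rnaseh1 itself. Of the 14 genes of purine synthesis and salvage, Hprt was the one called in either fit, and the median of the list was 0.01 against -0.0006 over all genes. The 20 other genes tested within 1 Mb had log2 fold changes of -0.22 to 1.41, and none was called in either fit, with a smallest edgeR adjusted p of 0.11 with the block (0.621% of all genes were called).

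**Figure D2:**
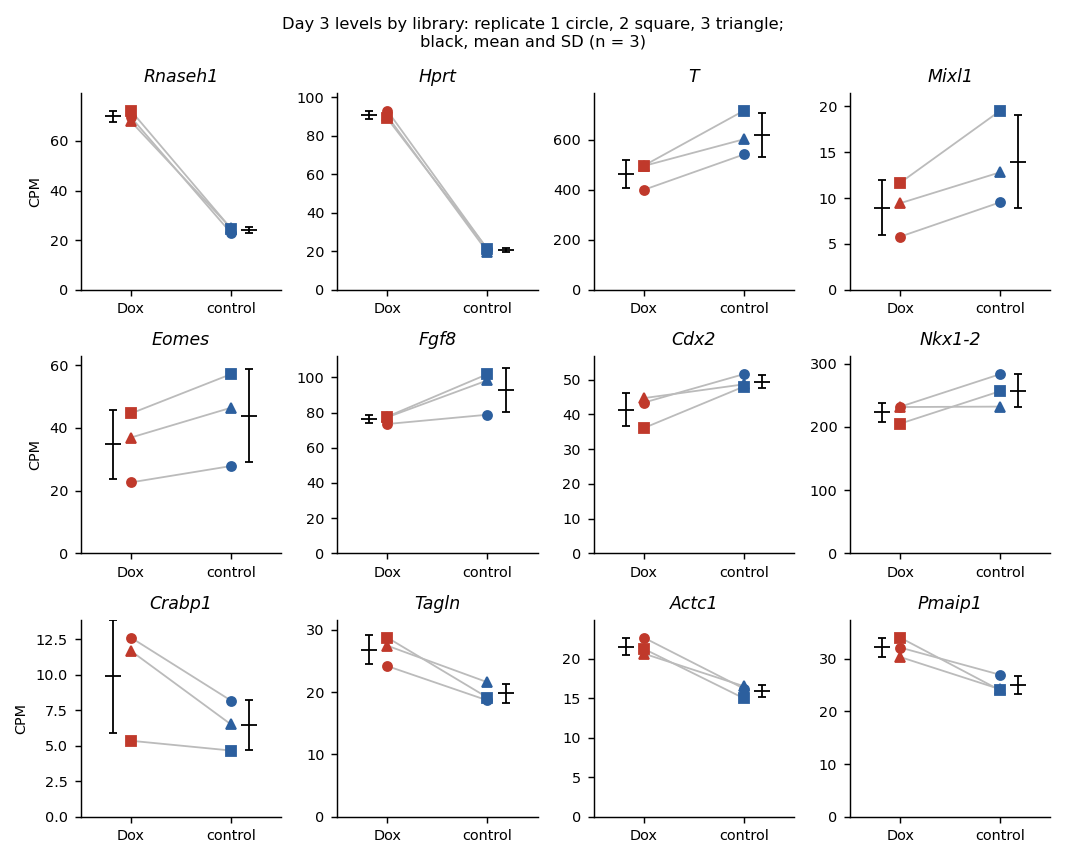
Levels of 12 genes in CPM (vertical axis, from 0) in the 3 Dox and the 3 control libraries, with circles, squares and triangles for replicates 1, 2 and 3, grey lines joining libraries of the same number, and black marks for the mean and SD (n = 3). The Dox points lie below their partners for T, Mixl1, Eomes, Fgf8, Cdx2 and Nkx1-2 and above them for the other 6 genes.

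Primitive streak genes were lower with Dox. Of the 14 tested members of the list of primitive streak and nascent mesoderm genes, T, Mixl1, Eomes and Fgf8 fell with the block and none rose, where 0.355% of all genes fell. Without the block none of the 14 was called, and 6 had an unadjusted p under 0.05. The median log2 fold change of the list was -0.25 (all genes, -0.0006), 11 of 14 were below 0 (50.4% of all genes), and 8 were lower in all 3 pairs of libraries with the same number (14.1% of all genes). In these bulk samples, fewer streak cells and less of these RNAs per cell cannot be told apart.

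T, or Brachyury, the T-box factor that marks the streak and is needed for posterior mesoderm, lies on GRCm38 chromosome 17, 8434423 to 8442496, plus strand (ENSMUSG00000062327.10). It had 399.9, 496 and 495 CPM in the Dox libraries, against 542, 717 and 602 CPM in the control libraries. Every Dox library was below every control, and in both groups replicate 1 was the lowest. The log2 fold change was -0.42 (SE 0.038, adjusted p = 1.8e-06), with a 95% interval of -0.49 to -0.34, by edgeR with the block, and -0.42 (SE 0.088, adjusted p = 0.14) without it. Per length it averaged 436 ± 48.97 TPM in Dox and 599 ± 79.4 TPM in control libraries (SD, n = 3 each). Mixl1, a homeobox gene of the streak that acts in mesoderm and endoderm formation, had 5.80, 11.7 and 9.44 CPM in the Dox libraries, against 9.55, 19.5 and 12.8 CPM in the control libraries. The groups overlapped, but each Dox library was below the control of its number. Its log2 fold change was -0.63 (SE 0.084, adjusted p = 0.00043) with the block, by edgeR, and -0.66 (SE 0.23, adjusted p = 0.66) without. Eomes, the T-box factor of the anterior streak, had 22.6, 44.6 and 36.9 CPM in the Dox libraries, against 27.8, 57.1 and 46.4 CPM in the control libraries. Here the replicate numbers differed more than the groups, with replicate 1 low and replicate 2 high in both. The edgeR log2 fold change was -0.33 (SE 0.048, adjusted p = 0.0011) with the block and -0.36 (SE 0.22, adjusted p = 0.89) without. Fgf8, the FGF ligand of the streak, had 73.5, 77.7 and 77.3 CPM in the Dox libraries, against 78.8, 102 and 98.3 CPM in the control libraries. The Dox libraries were close together and all below the controls. By edgeR the log2 fold change was -0.28 (SE 0.049, adjusted p = 0.0064) with the block and -0.29 (SE 0.073, adjusted p = 0.29) without it. These 4 genes kept an adjusted p under 0.05 with the block without any 1 replicate number, with log2 fold changes of -0.48 to -0.36 for T, -0.73 to -0.56 for Mixl1, -0.34 to -0.32 for Eomes and -0.37 to -0.23 for Fgf8.

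The other streak genes did not pass. Wnt3, the Wnt ligand that starts the streak, had 37.4, 41.3 and 38.5 CPM with Dox, against 38.1, 44.7 and 47.9 CPM in controls (edgeR adjusted p = 0.4 with the block). Evx1, a homeobox gene of the posterior streak, had 9.64, 13.7 and 11.4 CPM with Dox, against 10.4, 16.3 and 12.7 CPM in controls, with each Dox library below its partner and an edgeR adjusted p of 0.56 with the block. Gsc, the homeobox gene of the organizer, was low at 2.14, 2.90 and 3.46 CPM with Dox, against 3.27, 4.54 and 3.45 CPM in controls. Nodal, the ligand upstream of Eomes, had 68.5, 81.5 and 68.9 CPM with Dox, against 67.2, 81.9 and 74.9 CPM in controls, a log2 fold change of -0.04 with a 95% interval of -0.19 to 0.12. Snai1, the repressor of epithelial genes in cells leaving the streak, went the other way at 7.84, 7.34 and 7.56 CPM with Dox, against 5.59, 6.91 and 6.03 CPM in controls, with no overlap but an edgeR adjusted p of 0.39 with the block. The remaining tested members, Wnt3a, Lhx1, Tbx6, Foxh1 and Mesp2, did not pass in either fit, and Mesp1 was too low to test. The highest log2 fold change of the list, 0.60 without the block, belonged to 1 of these remaining tested members.

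The tailbud genes Cdx1, Cdx2 and Nkx1-2 were lower as well, by smaller amounts. With the block 3 of the 9 tested members of the list of tailbud and neuromesodermal progenitor genes fell and none rose (0.355% of all genes fell). Without it none was called. Their median log2 fold change was -0.11, and 7 of 9 were lower in all 3 pairs (14.1% of all genes). Cdx1, a caudal-type homeobox gene of posterior identity, had 55.4, 50.1 and 58.7 CPM in the Dox libraries, against 65.3, 66.2 and 64.2 CPM in the control libraries. Cdx2, its relative, had 43.4, 36.04 and 44.7 CPM in the Dox libraries, against 51.6, 47.99 and 48.6 CPM in the control libraries. Nkx1-2, a homeobox gene of axial progenitors, had 232.02, 205 and 231.6 CPM in the Dox libraries, against 284, 257 and 232.27 CPM in the control libraries. None of these 3 genes overlapped between the groups, though Nkx1-2 in Dox replicates 1 and 3 came within 1 CPM of control replicate 3. The edgeR log2 fold changes with the block were -0.25 (SE 0.05, adjusted p = 0.018) for Cdx1, -0.26 (SE 0.054, adjusted p = 0.025) for Cdx2 and -0.21 (SE 0.046, adjusted p = 0.043) for Nkx1-2. All 3 calls were lost without replicate 1, with edgeR adjusted p of 0.14 for Cdx1, 0.18 for Cdx2 and 0.49 for Nkx1-2. Without replicate 2 they were lost too, at 0.3, 0.38 and 0.41 in the same order. Sp5, Sp8, Wnt5a, Wnt5b, Fgf17 and Hes7 were not called, and Cdx4, Cyp26a1 and Nkx1-1 were too low to test.

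The promoter of T is shown because T had the highest level per length (TPM) of the 4 streak genes that fell. T is also a known target of Wnt signals through TCF/LEF factors. Among these factors Lef1 fell with the block, while Tcf7l1 rose with it, at an edgeR log2 fold change of 0.2. That Tcf7l1 call was lost without replicate 1 (adjusted p = 0.39) and without replicate 2 (0.48). Whether either factor bears on T was not tested. The RefSeq sequence of build GRCm38.p6 at chr17:8434173-8434472 on the plus strand runs from 250 bases before the start to 50 bases after it. Capitals mark the only match to CTTTGA, the core of TCF/LEF sites, which lies on the reverse strand.
T promoter: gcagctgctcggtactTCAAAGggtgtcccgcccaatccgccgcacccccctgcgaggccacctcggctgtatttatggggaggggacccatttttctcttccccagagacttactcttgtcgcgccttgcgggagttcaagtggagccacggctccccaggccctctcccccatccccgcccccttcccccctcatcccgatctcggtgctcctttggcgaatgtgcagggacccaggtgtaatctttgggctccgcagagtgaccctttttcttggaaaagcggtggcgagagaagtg
CTTTGA on either strand was found in 13.2% of the 38 promoters of genes that fell with the block, in 8.0% of the 25 promoters of genes that rose, and in 16.0% of all 32851 promoters of that length. The share among the genes that fell was not above that of all promoters.

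Among the FGF and ERK targets, Etv4, an ETS transcription factor switched on by FGF, and Dusp6, the phosphatase that limits ERK, fell with the block, as 2 of 12 tested members (0.355% of all genes fell), and none rose. The median of the list was -0.12, 11 of 12 members were below 0 (50.4% of all genes), and 6 were lower in all 3 pairs (14.1% of all genes). Etv4 had 36.7, 42.5 and 43.5 CPM in the Dox libraries, against 43.01, 53.7 and 51.5 CPM in the control libraries. The groups overlapped, with each Dox library below its partner. Its log2 fold change was -0.27 (SE 0.048, adjusted p = 0.0071) by edgeR with the block. Dusp6 had 88.5, 103 and 100.3 CPM in the Dox libraries, against 106, 119.7 and 109 CPM in the control libraries, with no overlap and a log2 fold change of -0.19 (SE 0.04, adjusted p = 0.023) by edgeR with the block. Spry2, an inhibitor of FGF receptor signals, had 80.6, 75.8 and 80.2 CPM with Dox, against 83.98, 90.9 and 89.1 CPM in controls, without overlap, but an edgeR adjusted p of 0.17 with the block. Without replicate 1 the adjusted p by edgeR with the block was 0.052 for Etv4 and 0.34 for Dusp6, and without replicate 2 it was 0.084 for Etv4 and 0.17 for Dusp6. Neither gene was called without the block, at 0.43 for Etv4 and 0.47 for Dusp6.

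Of the 13 Wnt targets and feedback genes, Lef1 fell with the block (0.355% of all genes fell) and none rose, with a list median of -0.06. Lef1, which encodes a transcription factor that acts with beta-catenin and also stands on the list of formative and primed pluripotency genes, had 156, 161 and 169 CPM in the Dox libraries, against 176, 178 and 188 CPM in the control libraries. The groups did not overlap, and Lef1 changed by -0.16 (SE 0.034, adjusted p = 0.028) on the log2 scale by edgeR with the block. That call was lost without replicate 1, at 0.29, and without replicate 2, at 0.25. On the Hedgehog list Gas1, a co-receptor of the pathway, fell with the block as 1 of 9 members, against the same 0.355% of all genes. It had 25.8, 27.5 and 24.3 CPM in the Dox libraries, against 34.9, 31.4 and 29.9 CPM in the control libraries, with no overlap and an edgeR log2 fold change of -0.31 (SE 0.056, adjusted p = 0.008) with the block, which became 0.17 in adjusted p without replicate 1. No member of the Nodal list (15 tested, median -0.03), of the BMP targets (9 tested, median -0.03) or of the Notch targets (10 tested, median 0.07) was called in either fit. Lefty1, the feedback inhibitor of Nodal, had 97.2, 83.2 and 87.6 CPM with Dox, against 84.8, 91.95 and 93.1 CPM in controls.

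Outside these lists, Alox15 and Epha2 were the named genes that fell in both fits besides Gm49320. Alox15 encodes a lipoxygenase that oxidises polyunsaturated fatty acids and lies on GRCm38 chromosome 11, 70344152 to 70352031, minus strand. It had 47.02, 54.7 and 54.8 CPM in the Dox libraries, against 67.3, 81.4 and 66.5 CPM in the control libraries. The groups did not overlap. The edgeR log2 fold change was -0.46 (SE 0.076, adjusted p = 0.046) without the block and -0.46 (SE 0.052, adjusted p = 5.8e-05) with it. Epha2 encodes an ephrin receptor and lies on GRCm38 chromosome 4, 141301240 to 141329384, plus strand. It had 129, 129 and 133 CPM in the Dox libraries, against 146, 168 and 159 CPM in the control libraries. The Dox libraries were close to each other, below all controls. The edgeR log2 fold change was -0.28 (SE 0.047, adjusted p = 0.048) without the block and -0.27 (SE 0.04, adjusted p = 0.0011) with it. Without the block both calls were lost without control replicate 2, at adjusted p of 0.15 for Alox15 and 0.25 for Epha2, and without each of the 3 Dox libraries, at 0.076 to 0.35 for Alox15 and 0.19 to 0.38 for Epha2. With the block both held without any 1 number.

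The rule for the largest blocked changes named 8 more genes that fell. Igfbp3, which binds insulin-like growth factors, had 29.8, 42.7 and 40.3 CPM in the Dox libraries, against 45.7, 60.3 and 46.1 CPM in the control libraries (edgeR log2 fold change -0.43 (SE 0.062, adjusted p = 0.0011) with the block). Ndrg1, a gene known to respond to hypoxia and to differentiation, had 11.99, 15.9 and 13.5 CPM in the Dox libraries, against 15.8, 22.8 and 17.96 CPM in the control libraries (-0.45 (SE 0.067, adjusted p = 0.0014) in the same fit). Trim67, a member of the tripartite motif family, had 42.3, 57.1 and 52.3 CPM in the Dox libraries, against 58.7, 79.98 and 64.3 CPM in the control libraries (-0.42 (SE 0.048, adjusted p = 5.8e-05)). These 3 held with the block without any 1 number, and for each the 3 pairs moved the same way although replicate 1 was the lowest in both groups. Apln, the ligand of the apelin receptor, was lower at 63.6, 69.7 and 68.4 CPM with Dox, against 86.2, 91.6 and 75.5 CPM in controls, with no overlap. Piezo2, a mechanically gated ion channel, was lower at 8.97, 9.14 and 9.72 CPM with Dox, against 12.3, 13.4 and 12.4 CPM in controls, also with no overlap. S100a11, a calcium-binding protein, had 11.2, 13.9 and 13.5 CPM with Dox, against 14.7, 17.2 and 18.01 CPM in controls. Epp13 had 9.25, 10.3 and 9.32 CPM with Dox, against 12.9, 13.2 and 11.7 CPM in controls, and Mab21l2 9.21, 13.3 and 12.6 CPM with Dox, against 13.2, 16.6 and 14.6 CPM in controls. Their edgeR adjusted p values with the block were 0.0022 for Apln, 0.0069 for Piezo2, 0.0092 for S100a11, 0.022 for Epp13 and 0.048 for Mab21l2, and without replicate 1 these 5 calls were lost, at 0.072 to 0.44, as was Mab21l2 without replicate 2, at 0.07. None of the 8 was called without the block. Myc, chosen after its values were seen, is the growth-promoting transcription factor, and had 29.2, 34.9 and 33.98 CPM with Dox, against 33.5, 44.1 and 42.3 CPM in controls (edgeR log2 fold change -0.29 (SE 0.05, adjusted p = 0.0064) with the block, with an adjusted p of 0.051 without replicate 2).

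Acta1, Actc1 and Tagln rose with the block, and of these Acta1 and Actc1 rose without it too. Acta1, skeletal muscle alpha-actin, on GRCm38 chromosome 8, 123891769 to 123894751, minus strand, had 8.54, 8.11 and 9.75 CPM in the Dox libraries, against 4.95, 5.27 and 5.87 CPM in the control libraries. Actc1, cardiac alpha-actin, on GRCm38 chromosome 2, 114047282 to 114053548, minus strand, had 22.7, 21.3 and 20.7 CPM in the Dox libraries, against 16.2, 15.005 and 16.5 CPM in the control libraries. Tagln, an actin-binding protein of smooth muscle, on GRCm38 chromosome 9, 45929619 to 45936058, minus strand, had 24.2, 28.7 and 27.4 CPM in the Dox libraries, against 18.7, 19.1 and 21.6 CPM in the control libraries. None of the 3 overlapped between groups, where 5.87% of all genes were higher without overlap. All 3 were picked from the calls on these same libraries, so this is no separate support. By edgeR the log2 fold changes were 0.71 (SE 0.11, adjusted p = 0.021) for Acta1, 0.44 (SE 0.068, adjusted p = 0.03) for Actc1 and 0.43 (SE 0.075, adjusted p = 0.055) for Tagln without the block. With the block they were 0.71 (SE 0.097, adjusted p = 0.00057), 0.43 (SE 0.064, adjusted p = 0.0013) and 0.44 (SE 0.061, adjusted p = 0.00075) in the same order. Acta1 and Actc1 are close relatives and can share reads, so the split between them is uncertain. These 3 genes belong to none of the gene lists used here and were grouped after their values were seen. Without the block, Acta1 was lost without control replicate 2 (0.15), Dox replicate 1 (0.091) or Dox replicate 3 (0.17), and Actc1 without control replicate 2 (0.22) or any Dox library (0.081 to 0.35). With the block all 3 held without any 1 number. The sum of the 5 feeder markers was 7.28 to 8.68 TPM with Dox and 7.96 to 9.45 TPM in controls. Nearly all of this sum was Thy1, so it says little of the other feeder markers. Col1a1 averaged 0.033 TPM with Dox and 0.047 TPM in controls, and Dcn 0.237 and 0.203 TPM in the same order.

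The retinoic acid binding proteins Crabp1 and Crabp2, which hold retinoic acid in the cytoplasm, rose with the block, as 2 of the 9 tested members of the retinoic acid list (0.266% of all genes rose), and no member fell. The list's median was 0.02. Crabp1 had 12.6, 5.36 and 11.7 CPM in the Dox libraries, against 8.19, 4.67 and 6.50 CPM in the control libraries. Replicate 2 was low in both groups, and the groups overlapped. The log2 fold change by edgeR was 0.60 (SE 0.11, adjusted p = 0.0081) with the block and 0.64 (SE 0.24, adjusted p = 0.72) without it. Crabp2 had 27.7, 23.5 and 27.03 CPM in the Dox libraries, against 20.7, 19.6 and 21.9 CPM in the control libraries, without overlap. Its log2 fold change by edgeR was 0.33 (SE 0.057, adjusted p = 0.0064) with the block and 0.33 (SE 0.07, adjusted p = 0.14) without. The Crabp1 call was lost without replicate 1 (adjusted p = 0.14) and without replicate 3 (0.083), and the Crabp2 call without replicate 1 (0.11). Cyp26a1, Cyp26b1 and Aldh1a2, the enzymes that break down and make retinoic acid, were too low to test.

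Pmaip1, which encodes the cell death factor NOXA and is a known p53 target, had 32.1, 34.02 and 30.3 CPM in the Dox libraries, against 26.9, 23.997 and 24.2 CPM in the control libraries. The groups did not overlap. It was the one of 17 tested p53 targets called, in both fits (0.0571% of all genes rose without and 0.266% with the block), with an edgeR log2 fold change of 0.36 (SE 0.061, adjusted p = 0.048) without and 0.36 (SE 0.056, adjusted p = 0.0024) with the block. Without the block it stayed under 0.05 only without control replicate 1, and was between 0.081 and 0.35 without any other library. The list's median was -0.02, with 13 of 17 members below 0 (50.4% of all genes). Cldn6, a tight junction protein of early epithelium that stands on the definitive endoderm and epithelial-mesenchymal lists, had 72.2, 85.7 and 78.8 CPM with Dox, against 61.6, 77.2 and 67.2 CPM in controls (edgeR log2 fold change 0.20 (SE 0.042, adjusted p = 0.024) with the block, 0.24 in adjusted p without replicate 1). Fbxo6, an F-box protein, had 7.57, 7.38 and 7.13 CPM with Dox, against 5.49, 5.33 and 5.27 CPM in controls. The groups did not overlap. Its edgeR log2 fold change was 0.46 (SE 0.1, adjusted p = 0.039) with the block, and the adjusted p was 0.071 to 0.24 without any 1 number. Aim2, a sensor of cytosolic DNA, had 24.3, 28.5 and 24.5 CPM with Dox, against 19.6, 20.96 and 20.6 CPM in controls (0.34 (SE 0.059, adjusted p = 0.0068)). Rhbdf1, an inactive rhomboid protein, had 17.6, 17.9 and 17.03 CPM with Dox, against 13.7, 12.9 and 14.8 CPM in controls (0.34 (SE 0.071, adjusted p = 0.024)). For these the adjusted p rose to 0.087 for Aim2 without replicate 2, and to 0.17 and 0.2 for Rhbdf1 without replicates 1 and 2.

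Apart from the lists described so far and the mitochondrial messenger RNAs, no list held a called gene in either fit. The naive pluripotency genes (10 tested) had a median log2 fold change of 0.10. Of these, 9 of 10 were above 0 (50.4% of all genes were below 0) and 3 were higher in all 3 pairs (14.2% of all genes). Nanog, a core factor of the stem cell state, had 259, 268 and 256 CPM with Dox, against 249, 269.6 and 248 CPM in controls. The core pluripotency genes (8 tested) had a median of -0.06, and Pou5f1, or Oct4, had 1053, 1148 and 1112 CPM with Dox, against 1088, 1210.0 and 1201 CPM in controls. Hox genes of paralogues 1 to 5 had a median of -0.23 over 9 tested genes. The integrated stress response genes (22 tested) had a median of -0.05, with 12 of 22 lower in all 3 pairs (14.1% of all genes) and 6 without overlap (5.66%). Psat1, an enzyme of serine synthesis on that list, had 512, 528 and 547 CPM with Dox, against 564, 577 and 569.6 CPM in controls, with an edgeR adjusted p of 0.16 with the block. R-loop processing factors (18 tested, median -0.02) and H2A.Z genes with their exchange complexes (18 tested, -0.03) stayed within 0.09 of 0 on the log2 scale, member by member, and H2afz had 741, 731 and 737 CPM with Dox, against 759, 746 and 705 CPM in controls. DNA damage response genes (16 tested) lay between -0.06 and 0.10. Cell cycle genes (16 tested) lay between -0.05 and 0.04. In all, 442 of the 514 genes on the 39 lists were tested. Of these, 4 were called without the block (0.0761% of all genes) and 20 with it (0.621%). With the block 8 were higher (0.266% of all genes) and 12 lower (0.355%). The lists and their members were chosen with earlier results of these data known, so these counts are no separate support.

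**Figure D3:**
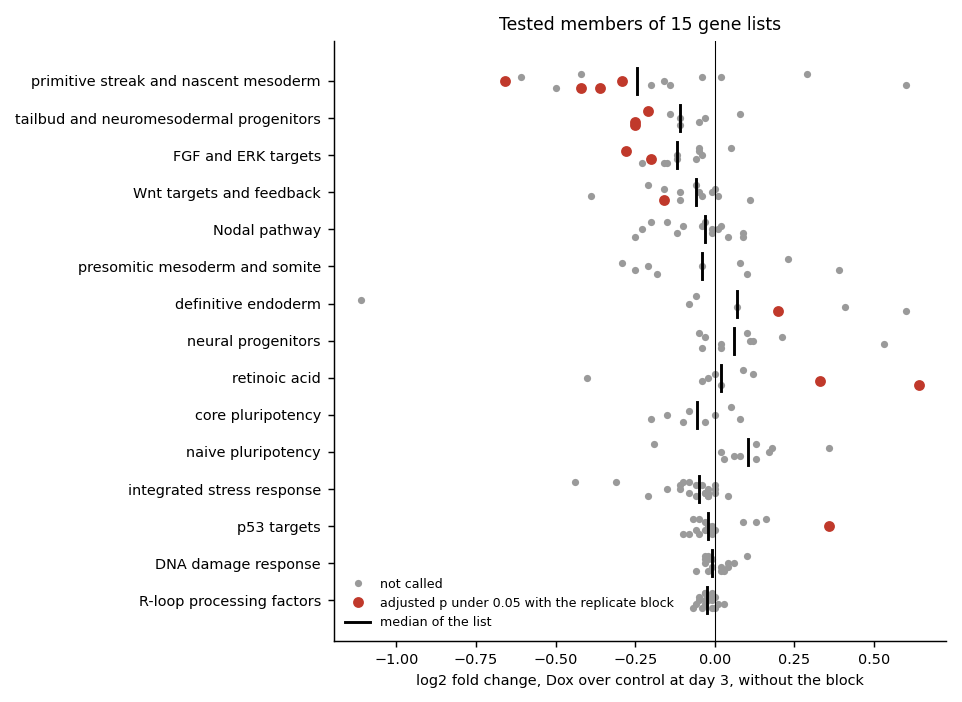
Log2 fold change of Dox over control without the block (horizontal axis) for the tested members of 15 gene lists (rows), with red points for members with an adjusted p under 0.05 in the fit with the replicate block, grey points for the others and a black bar for the median of each list. The streak list has its median at -0.25 and holds 4 red points on the lower side, while the R-loop factor list stays within 0.07 of 0.

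Several mitochondrial messenger RNAs were higher with Dox, among them mt-Cytb and mt-Nd2. As deposited, 2 of the 13 rose without the block (0.0571% of all genes) and none fell (0.019%), and with the block 3 rose (0.266%) and 1 fell (0.355%). mt-Cytb, cytochrome b of complex III, had 4934, 5050.3 and 4999 CPM in the Dox libraries, against 3923, 4200.0 and 3922 CPM in the control libraries. The groups did not overlap. The log2 fold change was 0.31 (SE 0.031, adjusted p = 0.00027) by edgeR without the block and 0.32 (SE 0.026, adjusted p = 4.8e-07) with it, and the call held without any 1 library. mt-Nd2, a subunit of complex I, had 2411, 2455 and 2429.9 CPM in the Dox libraries, against 2024, 2158 and 1999.5 CPM in the control libraries, again without overlap. Its log2 fold change was 0.24 (SE 0.032, adjusted p = 0.0078) by edgeR without and 0.24 (SE 0.028, adjusted p = 5.8e-05) with the block. Without the block the mt-Nd2 call was lost without any 1 Dox library, at adjusted p of 0.076 to 0.11. mt-Nd5 and mt-Nd6, the last of which lies on the other strand, had log2 fold changes of -0.04 and -0.03.

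The counts of several other mitochondrial genes cannot be read alone, since 7 pseudogenes on chromosome 1 (GRCm38 24611535 to 24616197) copy them. Of these 5 match their mitochondrial gene base for base over their whole length, Gm29216 matches mt-Co1 at 98.78% and Gm28438 differs from mt-Nd3 by 1 base. The first 120 bases of that pair, read from GENCODE M21 transcripts of GRCm38, are shown because a read that does not cover the capital base fits both genes. The substitution is T3C, with the mt-Nd3 base first and positions counted from 1 at the start of the gene. Gm28438 lies on chromosome 1, 24612775 to 24613119, minus strand, and mt-Nd3 on the mitochondrial chromosome, 9459 to 9806, plus strand.
Gm28438: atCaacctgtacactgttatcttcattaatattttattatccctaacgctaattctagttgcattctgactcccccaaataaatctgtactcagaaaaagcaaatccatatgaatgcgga
mt-Nd3: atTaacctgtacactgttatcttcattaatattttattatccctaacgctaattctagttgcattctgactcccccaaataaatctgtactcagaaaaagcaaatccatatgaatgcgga
Gm28438 alone had 283, 254 and 296 CPM in the Dox libraries, against 103, 134 and 96.04 CPM in the control libraries, a log2 fold change of 1.32 (SE 0.093, adjusted p = 4.8e-06) by edgeR without the block. mt-Nd3 alone had 291, 316 and 259 CPM in the Dox libraries, against 312, 292 and 200.3 CPM in the control libraries. Summed, the pair had 574, 570 and 555 CPM with Dox, against 415, 426 and 296 CPM in controls, and the log2 fold change was 0.58 (SE 0.092, adjusted p = 0.031) by edgeR without the block and 0.60 (SE 0.057, adjusted p = 3.2e-06) with it. The pair was higher with Dox, by a smaller log2 fold change than Gm28438 alone.

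Summing changed the direction of mt-Atp6. Alone it had 107, 123 and 135 CPM in the Dox libraries, against 202, 141 and 154 CPM in the control libraries, and it fell by edgeR with the block, at -0.43 (SE 0.086, adjusted p = 0.018), a call that was lost without replicate 1 (adjusted p = 0.11). Its identical copy Gm10925 held most of the counts, with 5558, 5780.1 and 5687 CPM with Dox, against 5009, 5242 and 4784 CPM in controls. Together they had 5665, 5903 and 5821 CPM in the Dox libraries, against 5211, 5383 and 4938 CPM in the control libraries, and a log2 fold change of 0.16 (SE 0.028, adjusted p = 0.0046) by edgeR with the block. mt-Co2 and its copy Gm28661, subunit II of cytochrome oxidase, together had 5499, 5599 and 5452 CPM with Dox, against 4669, 4761 and 4602 CPM in controls, a log2 fold change of 0.24 (SE 0.027, adjusted p = 0.0011) by edgeR without the block. With all copies summed, 4 of the 13 mitochondrial messenger RNAs rose without the block and 8 with it, none fell, and 10 did not overlap between the groups (5.87% of all genes were higher without overlap). The median log2 fold change of the 13 was 0.19, and over all genes 0.653% were called in the blocked fit with summed copies. The 13 and their 7 copies as 1 feature made up 49268, 50425 and 49868 CPM with Dox, against 45126, 46308 and 42229 CPM in controls, with a log2 fold change of 0.16 (SE 0.029, adjusted p = 0.084) without the block and 0.16 (SE 0.025, adjusted p = 0.0015) with it, by edgeR. The mitochondrial ribosomal RNA mt-Rnr1 went the other way, with 115, 122 and 114 CPM with Dox, against 131, 138 and 135 CPM in controls (edgeR log2 fold change -0.21 (SE 0.036, adjusted p = 0.0068) with the block, 0.072 in adjusted p without replicate 1), in libraries made from polyA RNA. The nuclear genes of the respiratory chain (18 tested) had a median of 0.03 with none called. The rRNA gene CT010467.1 took 0.191% to 0.330% of the counts with Dox and 0.293% to 0.483% in controls, an edgeR log2 fold change of -0.42 (SE 0.086, adjusted p = 0.021) with the block. That call was absent without the block (adjusted p = 0.79) and lost without replicate 1 (0.35) and without replicate 3 (0.11), with log2 fold changes of -0.67 to -0.27 without 1 number, and it was lower in 2 of 3 pairs. Its part in these results was not tested.

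**Figure D4:**
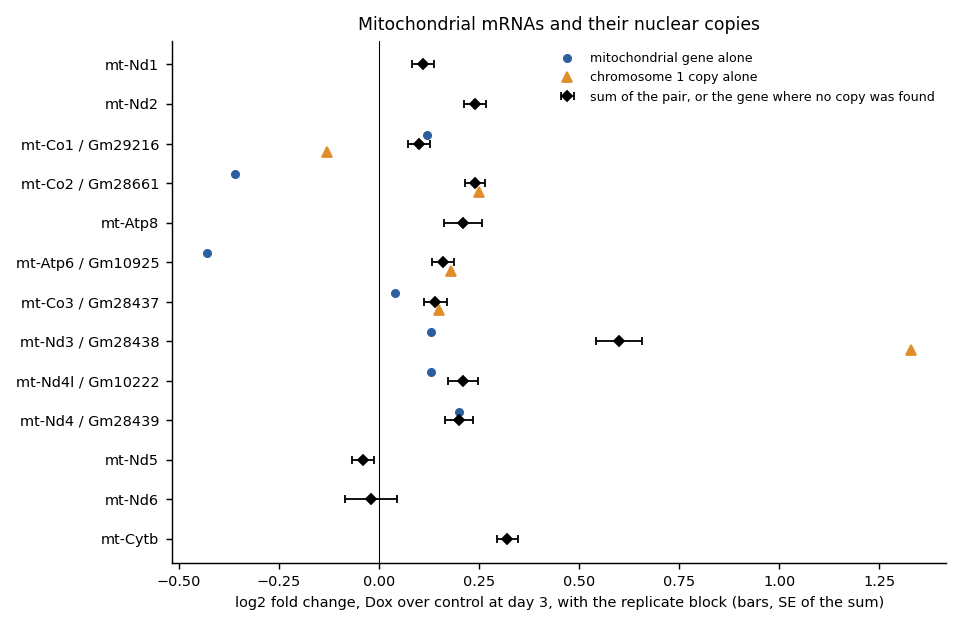
Log2 fold change of Dox over control with the replicate block (horizontal axis) for the 13 mitochondrial messenger RNAs (rows). For genes with a chromosome 1 copy, blue circles show the mitochondrial gene alone, orange triangles the copy alone and black diamonds with SE bars their sum. Where no copy was found, the black diamond is the gene itself. Gm10222 and Gm28439 alone are not drawn. Alone, mt-Atp6 lies at -0.43 and Gm28438 at 1.33, while their sums with their partners lie at 0.16 and 0.60.

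Some of the largest fold changes belong to genes with low counts or with 1 or 2 libraries far above the rest. Gm49320, annotated as protein-coding on GRCm38 chromosome 8, 4238865 to 4251423, plus strand, had 0.0610, 0.147 and 0 CPM in the Dox libraries, against 1.67, 0.844 and 0.579 CPM in the control libraries, an edgeR log2 fold change of -3.87 (SE 0.64, adjusted p = 0.047) without the block. It was lost without control replicate 2 (0.15) or any Dox library (0.062 to 0.36). The Dox counts of Gm49320 lay below the filter's minimum count, so it entered the test only through the control libraries. Its call and its lack of overlap are therefore no separate support for a fall. The pseudogene Gm2574 had 0.305, 1.98 and 0.0617 CPM with Dox, against 0, 70.1 and 0.342 CPM in controls, with 1 control library far above the other 5 libraries. Gm10222, an identical copy of mt-Nd4l, had 22.8, 0 and 69.4 CPM with Dox, against 0, 0.448 and 0 CPM in controls, with 1 Dox library at 0. Both were named after their values were seen.

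The genes called at day 3 were compared with day 0 and day 5, where each day has its own Dox and control libraries. Besides the Rnaseh1 and Hprt genes, 50 of those that fell with the block were tested at day 5, where 38 had a log2 fold change below 0 (49.3% of all genes did) and 22 fell with the block, against 8.97% of all genes. Of 39 that rose and were tested, 30 were above 0 at day 5 and 18 rose, against 8.36% of all genes. Among these 18 were mt-Nd2, mt-Nd4 and mt-Cytb and the chromosome 1 copies Gm10925, Gm28437, Gm28438 and Gm28661. They are counted here as separate genes, although copies can share reads with mitochondrial genes, so the 18 are not all separate observations. Going against day 3, 3 of the 50 rose at day 5 and 4 of the 39 fell. Those that rose were Peg3, Fst and Basp1, and those that fell were Ifitm1, Cxcl12, Gm29609 and Gm6745. These were 22 of the 1376 genes that fell and 18 of the 1282 that rose at day 5 with the block. T had a log2 fold change of -0.78 at day 5 (edgeR adjusted p = 0.0031 with the block), Cdx2 -1.60 (0.0047), Nkx1-2 -1.56 (0.00015), Crabp1 1.12 (1.1e-06) and Tagln 1.14 (0.00067). Acta1 had -1.01 there (adjusted p = 0.14) and Actc1 0.14 (0.7), by edgeR with the block. In the edgeR test of the difference between days over all 18 libraries without the block, none of these 5 differed between day 3 and either other day. Of the 94 named genes, 2 differed between day 3 and day 0, which were Rnaseh1 and Hprt, and 1 between day 3 and day 5, which was Hprt. With the block 4 named genes differed from each of the other two days.

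At day 0, 36 of the 50 tested genes that fell at day 3 were below 0 (48.8% of all genes were) and 6 fell with the block (0.61% of all genes), while 18 of the 32 that rose were above 0 and 1 rose (0.289%), which was Gm28438. Of those 32, 1 fell at day 0 with the block, which was Ntn1, a guidance cue, with a log2 fold change of -0.84 (edgeR adjusted p = 0.0059) at day 0 and 0.21 (0.015) at day 3. The 6 that fell as at day 3 were Cdx1, Cdx2, Nkx1-2, Myc, Grsf1 and Peg10. Mean levels at day 0 were 12.8 CPM with Dox and 40.2 CPM in controls for Cdx1. Cdx2 and Nkx1-2 were low there, with 0.412 and 1.88 CPM for Cdx2 and 1.90 and 3.81 CPM for Nkx1-2 in the same order. Of the genes in this comparison Ntn1, Myc, Grsf1 and Peg10 were named after their values were seen. The day 0 Dox library of replicate 2 stood apart, with 4.76% of its counts in CT010467.1 where the other day 0 libraries had 0.144% to 0.401%. Without replicate 2 at day 0, 37 of the 50 were below 0 and 9 fell, and 19 of the 32 were above 0 and 3 rose, where 281 genes fell and 150 rose in all. Shares over all genes were not worked out for this reduced fit, so these counts cannot be judged against them.

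**Figure D5:**
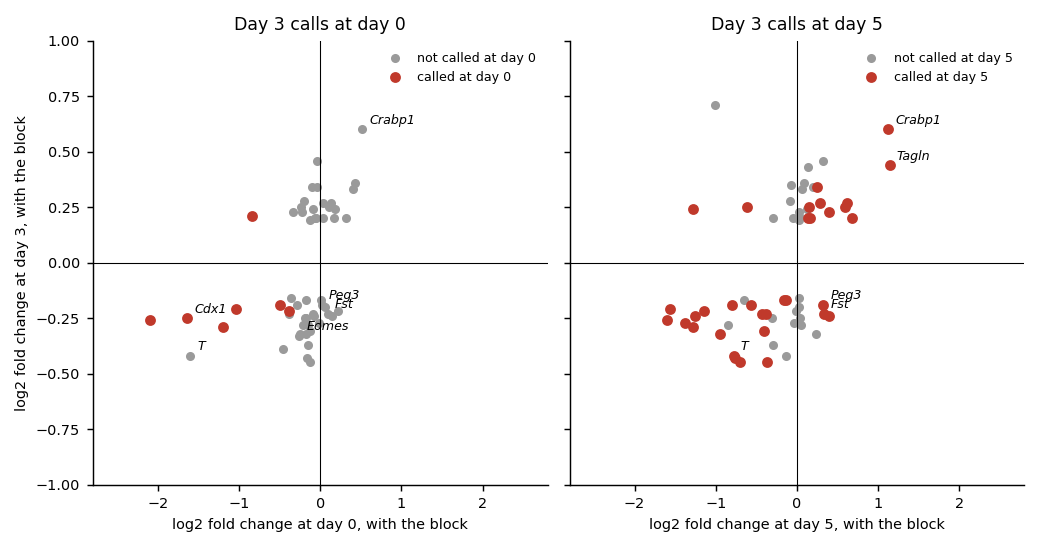
Log2 fold change at day 3 with the block (vertical axes) against that at day 0 (left) and day 5 (right), each fitted on its own day's libraries with the block, for the genes called at day 3 with the block, without Rnaseh1, Hprt, mitochondrial genes, ribosomal pseudogenes and genes with placeholder names (55 tested at day 0, 60 at day 5). Red points were called on the day of the horizontal axis. At day 5, 45 of the 60 lie on the same side of 0 as at day 3, and at day 0 37 of the 55 do.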

How the data were processed

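RNA of whole samples was measured in 18 libraries, of which the 6 of day 3 carry the results. The authors deposited, per library, an RSEM table of expected counts (estimated counts), TPM values and gene lengths per gene, per the file headers. Per the labels, 1 µg RNA went into a stranded polyA kit. Per the submitters' processing notes, the build was GRCm38 and the programs included RSEM 1.3.3, the aligner STAR in version 2.7.10a, Trimmomatic, and DESeq2 as version 1.38.2, in no stated order. The annotation release and the strand setting of the counting are not given in the sources used here. Expected counts are estimates in which a read shared by genes can be split, and 6.69% to 7.49% of the day 3 values were not whole.

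Of 55401 gene IDs, 55141 matched GENCODE M21 and 260 did not. Expected counts were rounded, genes kept by filterByExpr (minimum count 10, total 15), scaled by TMM and tested with edgeR 4.0.16 (R 4.3.3) quasi-likelihood F tests, two-sided, with Benjamini-Hochberg adjustment over 15771 genes and a threshold of 0.05. The groups were Dox and control by label. The main fit had no block, and the alternative had the replicate number, which the labels also give as batch, as a block. Deviations from the group means correlated at 0.0679, 0.0534 and -0.011 between day 3 libraries of the same number, and at -0.0857 to 0.0419 between other numbers. Named genes are Rnaseh1, Hprt, all 12 genes called without the block, the 12 highest and 12 lowest blocked changes of at least 1 CPM with a gene symbol that is not a placeholder and the same direction in all pairs, leaving out mitochondrial genes with a chromosome 1 copy and numbered pseudogenes as uncertain, and up to 4 called members per list, or the 2 with the most TPM where none was called. Other genes were chosen after their values were seen, and some genes that the rule names are not reported here. The members and lists were chosen with earlier results of these data known. Tests used DESeq2 1.42.0, limma 3.58.1, other scaling and filters, left-out libraries and all 18 libraries as alternatives. Summing the mitochondrial copies and leaving out replicate 2 at day 0 were chosen after seeing the data. TPM values were used for markers, with a pseudocount of 1 in the log2 alternative, and RSEM lengths were compared as deposited with an exact permutation test. The code was tested on simulated data.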

Additional observations from a re-analysis of the deposited data

Results flagged for a closer look

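The Dox effect on Rnaseh1 was smaller at day 3 than at day 0. The difference of the log2 fold changes, day 3 minus day 0, was -0.89 (edgeR over all 18 libraries, adjusted p = 0.00087). The effect on Rnaseh1 stood at a log2 fold change of 2.44 (day 0), 1.53 (day 3) and 1.53 (day 5). At day 0 Rnaseh1 had 152.5 ± 17.6 CPM with Dox and 28.3 ± 2.27 CPM in controls, and at day 5 it had 57.1 ± 3.35 CPM with Dox and 19.7 ± 0.372 CPM in controls (SD, n = 3 each).

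The Dox effect on Hprt was smallest of the 3 days at day 3. Its difference was -2.61 between day 3 and day 0 (adjusted p = 2.7e-10) and -1.14 between day 3 and day 5 (adjusted p = 7.5e-05), both by edgeR. Its log2 fold changes were 4.76 (day 0), 2.14 (day 3) and 3.27 (day 5). At day 0 Hprt had 333 ± 42.3 CPM with Dox and 12.4 ± 0.835 CPM in controls, and at day 5 it had 199 ± 15.6 CPM with Dox and 20.5 ± 0.594 CPM in controls (SD, n = 3 each). The day 0 values include the Dox library of replicate 2, whose share of CT010467.1 counts was 4.76%, and its part in these differences was not tested.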

How the results depend on the processing

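Rnaseh1 and Hprt kept their direction and their call under every alternative run, at log2 fold changes of 1.5 to 1.58 for Rnaseh1 and 2.08 to 2.17 for Hprt. The number of genes called at day 3, 12 without the block, was 98 with the replicate block, 38 with DESeq2, 38 with DESeq2 and the block, 94 with limma-voom and the block, 82 with library size alone and the block, 3 with all 18 libraries and 4 with all 18 libraries and the block. It was 186 without a filter and 228 without a filter but with the block. In those fits without a filter the total degrees of freedom per gene were 106736 and 53368, where the filtered ones had 14.1 and 19.1. Leaving out 1 library gave 5 to 35 calls, and leaving out 1 replicate number with the block gave 54, 112 and 165 (without replicates 1, 2 and 3). Of the calls, 5 of 12 without the block and 28 of 98 with it held in every such fit. With the mitochondrial copies summed and the block, which was chosen after seeing the data, 103 genes were called and mt-Atp6 turned to 0.16. The sum adds the counts of its identical copy. For the tests of the difference between days, the replicate block gave 4 named genes against day 0 and 4 against day 5, and library size alone gave 2 against day 5. Beyond the summing and the filters, the cause of these changes was not tested. The streak, tailbud and signalling calls rest on the block, and the block did not secure them in every fit. With all 18 libraries and the block, Rnaseh1 and Hprt were among the 4 genes called, so most of these calls were lost there. Genes near the filter carry few counts.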

Other observations

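Neighbouring genes on chromosome 11 (GRCm38) rose together with the block, a group chosen after its values were seen. Il9r, the interleukin 9 receptor, at 32187541 to 32200279 on the minus strand, had 0.732, 0.477 and 0.556 CPM in the Dox libraries, against 0.171, 0.106 and 0.105 CPM in the control libraries. Snrnp25, a subunit of the minor spliceosome, at 32205415 to 32208984 on the plus strand, had 41.5, 40.2 and 42.2 CPM in the Dox libraries, against 35.03, 33.8 and 36.5 CPM in the control libraries. Rhbdf1, at 32209585 to 32222300 on the minus strand, had 17.6, 17.9 and 17.0 CPM with Dox, against 13.7, 12.9 and 14.8 CPM in controls. None of the 3 overlapped between the groups, where 5.87% of all genes were higher without overlap. The 3 were picked from the calls on these same libraries, so this is no separate support. Il9r was near the floor, and its control counts lay below the filter's minimum count. It entered the test only through the Dox libraries, so its call is no separate support for a rise. By edgeR with the block the log2 fold changes were 2.19 (adjusted p = 0.019) for Il9r, 0.24 (0.021) for Snrnp25 and 0.34 (0.024) for Rhbdf1. Without the block none was called, at adjusted p of 0.082, 0.12 and 0.14 in the same order. The next genes, Nprl3 and Mpg, had log2 fold changes of 0.0 and 0.02. Of the 5 tested genes within 100 kb of Snrnp25, 3 rose, where 0.266% of all genes rose. The window was centred on Snrnp25, itself a called gene, and chosen after the calls were seen. The count is thus set in part by that choice and is no support for a shared change. Without replicate 1 the adjusted p with the block was 0.15 for Il9r, 0.16 for Snrnp25 and 0.17 for Rhbdf1, without replicate 2 it was 0.13 for Snrnp25 and 0.2 for Rhbdf1, and without replicate 3 it was 0.058 for Il9r. How the counting treated strand is not given in the sources used here, and reads between these neighbours were not examined.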
